A study of Glycine max with 4 samples.

Results

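Acid phosphatases release phosphate (Pi) from organic phosphate esters at low pH. The acid phosphatase genes of soybean leaves were taken as every row of the deposited expression table that is a single locus and whose gene description contains the words acid phosphatase. This rule found 80 genes among 39505 loci. By their descriptions, 42 were purple acid phosphatases (PAPs), 18 were acid phosphatases of subfamily IIIB of the HAD superfamily, and 2 were histidine acid phosphatases. The same words also took in 6 genes described as related to acid phosphatase and vanadium-dependent haloperoxidase. They also took in 12 described as phosphatidic acid phosphatases, a name that refers to a membrane lipid. These last classes are described apart.

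PAPs carry a metal pair in the active site, and the bond between iron and a tyrosine gives them their colour. Plants make many PAPs, some secreted into the soil or the cell wall and some held in the vacuole, and several are classical markers of Pi starvation. HAD enzymes instead use an aspartate in the active site. The HAD IIIB group includes the vegetative storage proteins of soybean, glycoproteins that build up in leaf vacuoles as a nitrogen store and whose genes are known to respond to jasmonate, sugar and Pi supply. Histidine acid phosphatases form a separate fold with a catalytic histidine. Enzymes that act on phosphatidic acid make diacylglycerol for lipid synthesis. Of the 12 genes described here as phosphatidic acid phosphatases, 4 carry the KEGG term N-glycan biosynthesis and 2 sphingolipid metabolism.

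Leaf RNA was sequenced from Williams 82 soybean seedlings after 24 h in solution with 500 µM KH2PO4 (Pi-sufficient leaves, libraries PSL-1 and PSL-2) or with 0 µM KH2PO4 (Pi-deprived leaves, libraries PDL-1 and PDL-2). For the deprived plants, K2SO4 stood in for KH2PO4, so that sulfate differed as well. Both groups carried the same genotype and had been cultivated with Pi for 18 days before the transfer. Every library pooled leaves of 3 plants (the first trifoliate leaf), so n = 2 in each group, and 1 time point was measured. The values are FPKM, fragment numbers scaled to transcript length and to the mapped fragments of the library, as estimated by the authors. In bulk leaf RNA, fewer cells of a type and less RNA per cell cannot be told apart.

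A gene is said to have risen or fallen in PDL where limma on log2(FPKM + 0.1) gave a log2 fold change of 1 or more in either direction together with an unadjusted p no higher than 0.05. The test was fitted on the 32686 loci whose FPKM averaged 0.3 or more, and the Benjamini-Hochberg adjusted p over all of them is given beside it. On this scale the change of genes with a low FPKM is understated. Of all loci tested, 1.14% were higher and 0.887% lower in PDL (2.03% in either direction), and 0.0581% had an adjusted p under 0.05. With 2 libraries in each group, no exact permutation p can be smaller than 0.333. The reference gene ACTIN11 (Gm18g290800) had 88.1 and 106 FPKM in PDL against 104 and 92.3 FPKM in PSL. Leaf genes for light harvesting and Rubisco were abundant in all 4 libraries, and their summed FPKM was 188295 and 190840 in PDL, against 150449 and 163474 in PSL. These groups did not overlap, and the part of this difference in the results on acid phosphatases was not tested.

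Of the 80 genes, 65 passed the filter on low values and 15 did not. These 15 had mean FPKM from 0.0197 to 0.266, and 13 of them were listed at 0 in at least 1 library. All 20 chromosomes held at least 1 of the 80 genes. The genes took 0.0572% to 0.0623% of the summed FPKM of a library.

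Short-term Pi deprivation was accompanied by a rise of 2 of the 65 acid phosphatase genes tested (3.08%) and by a fall of none (0 of 65) in limma. Both were PAPs, Gm08g056400 of number 17 and Gm19g026600 of number 23. In all loci tested, the share higher was 1.14%. Of the 65 genes, 8 (12.3%) had an unadjusted p no higher than 0.05, against 8.93% of all loci tested, while the adjusted p from limma was under 0.05 for 0 of them. The median log2 fold change was 0.07 over the 65 genes and −0.01 over all loci tested. Both PDL libraries lay above both PSL libraries for 19 genes (29.2%, against 20.2% of all loci tested) and below them for 10 (15.4%, against 21.1%), so the groups did not overlap for 29 (44.6%, against 41.3%). For 48 of the 65 genes the absolute log2 fold change was under 0.5, and for 39 the 95% interval of the change lay between −1 and 1.

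**Figure D1:**
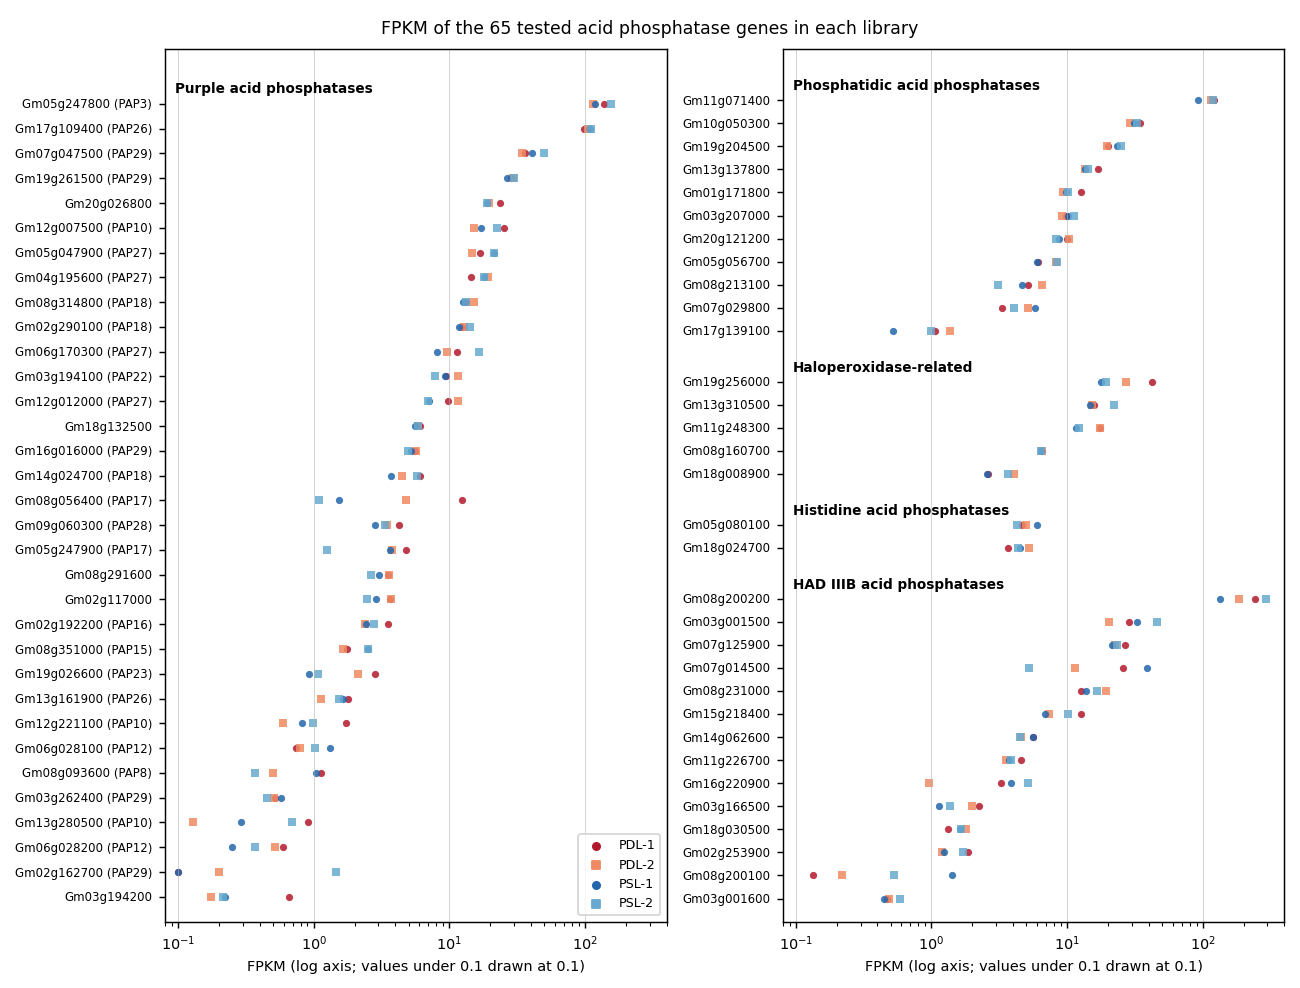
FPKM of the 65 tested acid phosphatase genes in each library, on a log axis, ordered by mean FPKM within each class, with circles for replicate 1 and squares for replicate 2. Levels span from under 1 FPKM to 292 FPKM, and for most genes the 4 libraries lie close together, while Gm08g056400 (PAP17) has both PDL libraries to the right of both PSL libraries.

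The numbers of the PAPs follow the deposited descriptions. Gm08g056400, described as purple acid phosphatase 17, spans 4330266 to 4332020 of chromosome 8 (genome version Gmax2.0) and has also been named GmPAP13. In Arabidopsis, PAP17 is a small PAP that is induced by Pi starvation and in senescing leaves. Gm08g056400 had 12.4 and 4.80 FPKM in PDL against 1.55 and 1.09 FPKM in PSL. Both PDL libraries were above both PSL libraries, and the level in PDL-1 was 2.59 times that in PDL-2. The means were 8.62 ± 5.41 FPKM in PDL and 1.32 ± 0.319 FPKM in PSL (SD, n = 2), a ratio of 6.53. Its log2 fold change was 2.48, with a standard error of 0.52 and an adjusted p of 0.471 in limma. The gene passed in 12 of 13 alternative settings and missed without PSL-2 (limma log2 fold change 2.25, unadjusted p = 0.0783). Among the 42 PAPs, it ranked 10 and 16 by FPKM in PDL-1 and PDL-2 and 24 and 25 in PSL-1 and PSL-2.

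The other 2 genes described as number 17 did not pass. Gm05g247900, on chromosome 5 from 42110164 to 42111996, had 4.77 and 3.80 FPKM in PDL against 3.67 and 1.26 FPKM in PSL. The groups did not overlap, but PSL-1 was nearly as high as PDL-2. The change on the log2 scale was 0.95, with a standard error of 0.54 and an adjusted p of 0.664 in limma, and its 95% interval ran from −0.52 to 2.41. Without PSL-1 it passed, with a limma log2 fold change of 1.68 and an unadjusted p of 0.0124. Gm20g011900 was under the filter, with 0.0891 and 0.143 FPKM in PDL against 0.204 and 0.264 FPKM in PSL, so here both PDL libraries were the lower ones, at levels too low to weigh. Gm08g056400 took 71.9% and 54.9% of the summed FPKM of these 3 genes in PDL and 28.5% and 41.8% in PSL. The log2 ratio of Gm08g056400 over Gm05g247900 was 1.36 and 0.33 in PDL against −1.20 and −0.18 in PSL. This ratio was higher in both PDL libraries, by 1.54 on average (exact two-sided permutation test, p = 0.333, the smallest possible). Gm08g056400 was taken for the ratio because it passed as higher in these libraries, so the direction of the ratio follows in part from that choice. Reads from near-identical gene copies may be divided between them, and how far this touched these copies was not tested.

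Gm19g026600, described as purple acid phosphatase 23 and also named GmPAP31, lies on chromosome 19 from 3303966 to 3312803. In Arabidopsis, PAP23 has phytase activity and was studied in flowers. Gm19g026600 had 2.82 and 2.13 FPKM in PDL against 0.922 and 1.08 FPKM in PSL. The replicates of each group were close, and the groups did not overlap. The log2 fold change was 1.22, with a standard error of 0.27 and an adjusted p of 0.486 in limma, and the ratio of the means was 2.48. It passed in 11 of 13 alternative settings. It missed with a pseudocount of 1 (log2 fold change 0.79), where low levels are compressed, and without PDL-1 (log2 fold change 1.02, unadjusted p = 0.0510). The table lists 6 transcripts for this gene, the highest number among the 80 genes.

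**Figure D2:**
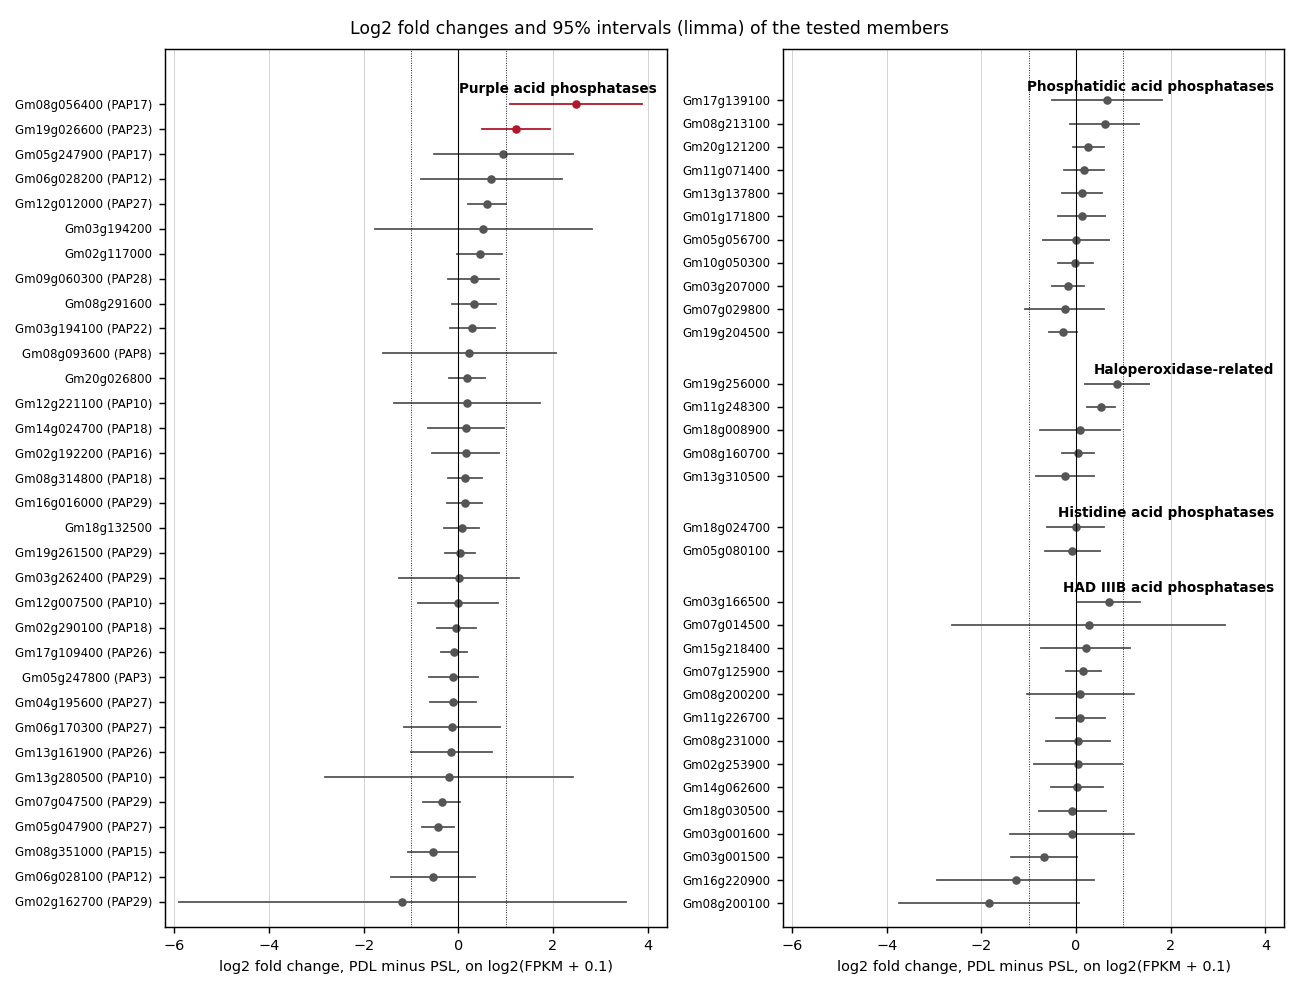
Log2 fold change of PDL minus PSL for the 65 tested genes, with 95% intervals from limma, ordered by size within each class; dotted lines mark −1 and 1, and the 2 genes that passed are in red. Gm08g056400 (2.48) and Gm19g026600 (1.22) stand at the top of the PAPs, and wide intervals belong to genes with low or unsteady FPKM such as Gm02g162700 and Gm07g014500.

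Apart from these, 31 of the 33 PAPs tested did not pass, and 9 of 42 PAPs were not tested. The median log2 fold change of the 33 was 0.13, with 20 values above 0 and 13 below. PAPs were the largest class by level as well, with 43.3% of the summed mean FPKM of the 80 genes. Their summed FPKM was 502 and 460.3 in PDL against 459 and 528 in PSL (exact two-sided permutation test, p = 1), so the total PAP signal overlapped between the groups.

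The most abundant PAP was Gm05g247800, of number 3, a small PAP like number 17 in Arabidopsis. It lies on chromosome 5 from 42105859 to 42108238 and is the next locus to Gm05g247900, with 1926 bases between them. Gm05g247800 had 139 and 114 FPKM in PDL against 118 and 155 FPKM in PSL. Its log2 fold change was −0.11, with a standard error of 0.19 and an adjusted p of 0.878 in limma. The neighbours thus differed in level, with means of 131 and 3.37 FPKM over the 4 libraries, and only the lower one had groups that did not overlap. Both genes, with the other genes of number 17, are the 4 of these genes that carry the KEGG term lysosome. Gm08g093300, the other gene of number 3, was under the filter with a mean of 0.112 FPKM.

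Number 26 came next in level. In Arabidopsis, PAP26 is a major acid phosphatase of the vacuole and of secretions. Gm17g109400 had 98.9 and 106 FPKM in PDL against 108 and 111 FPKM in PSL. The groups did not overlap, with PDL lower by a small amount. The change on the log2 scale was −0.10, with a standard error of 0.10 and an adjusted p of 0.773 in limma, and its 95% interval ran from −0.37 to 0.17. Its partner Gm13g161900 had a mean of 1.53 FPKM and overlapping groups.

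Number 10, in Arabidopsis a PAP of the root surface that is induced by Pi starvation, had 4 genes. Gm12g007500 was the most abundant, with 25.5 and 15.1 FPKM in PDL against 17.2 and 22.6 FPKM in PSL. The libraries of the groups overlapped, and the log2 fold change was −0.01 (standard error 0.31). Gm12g221100 and Gm13g280500 had means of 1.03 and 0.505 FPKM and were highest in PDL-1 and lowest in PDL-2, while Gm09g229200 was under the filter. Number 12, a secreted PAP that is induced by Pi starvation in Arabidopsis, had 2 genes next to each other on chromosome 6, 2064 bases apart. Gm06g028100 had 0.745 and 0.788 FPKM in PDL against 1.33 and 1.02 FPKM in PSL, and Gm06g028200 had 0.592 and 0.521 FPKM in PDL against 0.248 and 0.372 FPKM in PSL. The first was lower and the second higher in both PDL libraries, with log2 fold changes of −0.54 and 0.69 (standard errors 0.33 and 0.55). Neither passed in limma (adjusted p = 0.675 and 0.725).

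Number 15 is a phytase in Arabidopsis, an enzyme that releases Pi from inositol hexakisphosphate. Gm08g351000 had 1.77 and 1.65 FPKM in PDL against 2.50 and 2.53 FPKM in PSL. The groups did not overlap, and the replicates were close. The log2 fold change was −0.53, with a standard error of 0.19 and an adjusted p of 0.559 in limma, with an unadjusted p of 0.0475, but the change stayed under the fold threshold. Gm18g001300, the other gene of number 15, had at most 0.0435 FPKM.

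Number 27 had 5 genes, of which 2 differed in opposite directions. Gm12g012000 had 9.80 and 11.7 FPKM in PDL against 7.03 and 6.99 FPKM in PSL, and Gm05g047900 had 16.8 and 14.7 FPKM in PDL against 21.3 and 21.3 FPKM in PSL. Neither pair of groups overlapped. Its log2 fold change was 0.60, with a standard error of 0.15 and an adjusted p of 0.504 in limma (Gm12g012000). For Gm05g047900 the log2 fold change was −0.44 and the standard error 0.12 (limma adjusted p = 0.524). Their unadjusted p-values were 0.0127 and 0.0217, and both changes stayed under the fold threshold. Gm04g195600 and Gm06g170300 had means of 17.4 and 11.4 FPKM and overlapping groups, and Gm09g225000 was under the filter. The summed FPKM of the 5 genes was 52.6 and 55.3 in PDL against 54.3 and 62.9 in PSL.

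Number 29 also had 5 genes. Gm07g047500 had 36.1 and 34.5 FPKM in PDL against 40.5 and 50.2 FPKM in PSL. Both PDL libraries were lower, with a log2 fold change of −0.35 (with standard error 0.14) and a 95% interval from −0.74 to 0.04. Gm19g261500 and Gm16g016000 had means of 28.7 and 5.36 FPKM and changed by 0.04 and 0.13 on the log2 scale. Gm03g262400 had a mean of 0.516 FPKM with overlapping groups. Gm02g162700 was listed at 0 in PDL-1 and PSL-1 and had 0.202 FPKM in PDL-2 and 1.46 FPKM in PSL-2, so its low mean log2 fold change of −1.18 rests on 1 library and did not pass.

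Number 18 had 3 genes, and none passed in limma. Gm08g314800, Gm02g290100 and Gm14g024700 had means of 13.6, 12.8 and 4.99 FPKM, and their log2 fold changes lay between −0.04 and 0.16. Number 22 was led by Gm03g194100, with 9.48 and 11.7 FPKM in PDL against 9.27 and 7.87 FPKM in PSL. The PDL libraries were the higher ones by a narrow margin (log2 fold change 0.30, standard error 0.17). The other genes of number 22, Gm10g071000 and Gm19g193900, were under the filter. The remaining numbers had 1 tested gene each. Gm09g060300 of number 28 had 4.28 and 3.49 FPKM in PDL against 2.82 and 3.33 FPKM in PSL (log2 fold change 0.33). Gm02g192200 of number 16 had a mean of 2.78 FPKM and overlapping groups. Gm08g093600 of number 8 had a mean of 0.760 FPKM and followed the replicate number, with 1.13 and 1.04 FPKM in PDL-1 and PSL-1 and 0.503 and 0.369 FPKM in PDL-2 and PSL-2. Gm05g138400, also of number 8, was under the filter.

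Another 6 PAPs carry no number. The 5 that were tested all had log2 fold changes above 0, between 0.07 and 0.52, and none passed in limma. Gm20g026800 was the most abundant of them, with 23.6 and 19.5 FPKM in PDL against 18.9 and 19.0 FPKM in PSL. Gm02g117000 had 3.68 and 3.68 FPKM in PDL against 2.88 and 2.45 FPKM in PSL, and Gm08g291600 had 3.54 and 3.58 FPKM in PDL against 3.02 and 2.63 FPKM in PSL. In these 3 genes both PDL libraries were above both PSL libraries, with log2 fold changes of 0.18, 0.45 and 0.33 (standard errors 0.14, 0.18 and 0.17). Gm18g132500 had a mean of 5.84 FPKM and overlapping groups. Gm19g194000 was the only one of the 80 genes listed at 0 in both libraries of one group and above 0 in both of the other. It had 0.222 and 0.237 FPKM in PDL but 0 in both PSL libraries, which is under the filter and too low for a fold. With no filter on low values it passed as higher. Its neighbour Gm19g193900, of number 22 and 3629 bases away, had 0.208 and 0.165 FPKM in PDL against 0.0522 and 0 FPKM in PSL. The like pair on chromosome 3, Gm03g194100 and Gm03g194200, lies 4022 bases apart, and its unnumbered gene Gm03g194200 was high in PDL-1 alone (0.660 FPKM, against 0.176 to 0.223 FPKM in the other libraries).

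**Figure D3:**
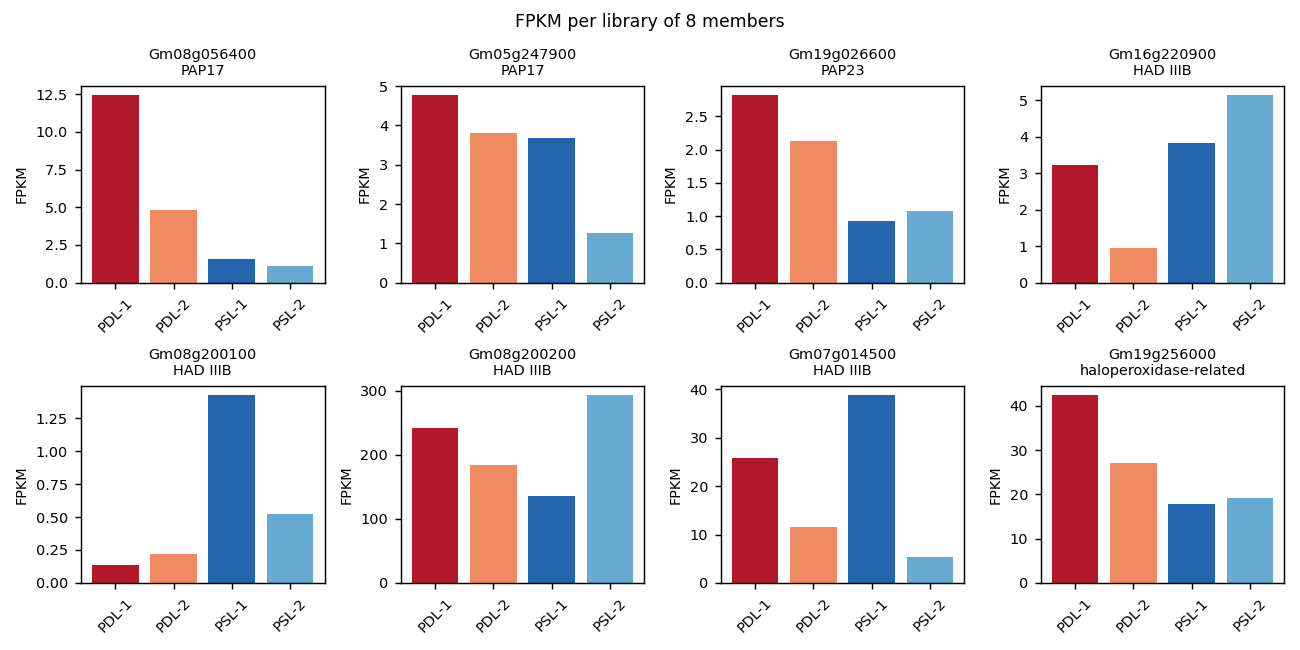
FPKM of 8 genes in each library as bars from 0, red for the PDL libraries and blue for the PSL libraries. For Gm08g056400 and Gm19g026600 both PDL bars exceed both PSL bars, Gm16g220900 is low in PDL-2 alone, and Gm08g200200 and Gm07g014500 vary as much within a group as between groups.

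None of the 14 HAD IIIB genes tested passed in limma in either direction, against 1.14% of all loci higher and 0.887% lower, and 1 of them had an unadjusted p of at most 0.05. Another 4 of the 18 were not tested. The median log2 fold change of the 14 was 0.04, with 9 values above 0 and 5 below. This class had the wider spread between replicates, with a median SD of 0.34 on the log2 scale against 0.19 for the PAPs and 0.20 for all loci. These SDs were not tested against each other.

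Gm08g200200 was the most abundant of all 80 genes and lies on chromosome 8 from 16187840 to 16191140. It had 241 and 184 FPKM in PDL against 135 and 292 FPKM in PSL. The highest and the lowest library were both PSL libraries, so the groups overlapped. The change on the log2 scale was 0.09, with a standard error of 0.42 and an adjusted p of 0.962 in limma. It took 65.6% and 65.8% of the summed FPKM of the class in PDL and 50.3% and 70.8% in PSL. Its row of neighbours on chromosome 8 was far lower. Gm08g200100, 2832 bases away, had 0.134 and 0.218 FPKM in PDL against 1.42 and 0.526 FPKM in PSL. Here both PDL libraries were below both PSL libraries. The log2 fold change was −1.84, with a standard error of 0.70 and an adjusted p of 0.568 in limma, and the unadjusted p was 0.0554, just past the threshold. Gm08g200100 passed as lower with a pseudocount of 0.01, with no filter, under quantile normalization and without the mean-variance trend, with log2 fold changes from −2.27 to −1.84. Its log2 fold change was −2.48 without PSL-2, −1.62 without PDL-1 and −2.06 without PDL-2. Without PSL-1, its highest library, the mean lay under the filter, so the size of the fall leans on that library. Gm08g200000, the third gene of the row, was listed at 0 in 3 libraries.

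Gm16g220900, on chromosome 16 from 37788074 to 37791826, had 3.24 and 0.952 FPKM in PDL against 3.84 and 5.14 FPKM in PSL. Both PDL libraries were below both PSL libraries, but PDL-1 lay close to PSL-1 and 3.40 times above PDL-2. Its log2 fold change was −1.28, with a standard error of 0.61 and an adjusted p of 0.620 in limma, and the 95% interval from −2.94 to 0.38 included 0. The gene passed without PDL-1, with a limma log2 fold change of −2.11 and an unadjusted p of 0.00949, so that the lower PDL mean rests on PDL-2.

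Gm07g014500, on chromosome 7 from 1145094 to 1146366, had 25.8 and 11.5 FPKM in PDL against 38.7 and 5.26 FPKM in PSL. In both groups replicate 1 was the high library, 2.25 times PDL-2 in PDL and 7.36 times PSL-2 in PSL. Of the 18090 loci that averaged 5 FPKM or more, 2.1% had a replicate SD as large or larger. The change on the log2 scale was 0.26, with a standard error of 1.06 and an adjusted p of 0.953 in limma, and the 95% interval ran from −2.62 to 3.15. Its neighbour Gm07g014600 was above 0 in PDL-1 only.

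The remaining HAD IIIB genes did not pass in either direction. Gm03g001500 had 28.7 and 20.2 FPKM in PDL against 33.0 and 45.9 FPKM in PSL, so both PDL libraries were lower, with a log2 fold change of −0.69 (with standard error 0.26, 95% interval −1.39 to 0.01). Its neighbour Gm03g001600, 4867 bases away, had a mean of 0.496 FPKM and overlapping groups. Gm03g166500 had 2.23 and 1.98 FPKM in PDL against 1.14 and 1.37 FPKM in PSL. It was higher in both PDL libraries, with a log2 fold change of 0.70 (with standard error 0.24) and an unadjusted p of 0.0401, under the fold threshold. Gm07g125900, Gm08g231000 and Gm15g218400 had means of 23.5, 15.6 and 9.29 FPKM with overlapping groups and log2 fold changes from 0.04 to 0.20. Gm14g062600, Gm11g226700, Gm18g030500 and Gm02g253900 had means up to 5.07 FPKM, and their changes lay between −0.08 and 0.08 on the log2 scale. Gm01g005700 and Gm19g167600 were listed at 0 in 3 libraries each.

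The leaf cells that hold vegetative storage proteins in soybean also hold vegetative lipoxygenases, and lipoxygenases and allene oxide enzymes begin jasmonate synthesis. Of 54 such loci, 35 were tested and none passed in limma, against 1.14% and 0.887% of all loci. Gm15g026500, the most abundant lipoxygenase gene, had 249.5 and 226 FPKM in PDL against 181 and 316 FPKM in PSL. The libraries ranked PSL-2, PDL-1, PDL-2 and PSL-1 from high to low for this gene, for Gm08g200200 and for the summed FPKM of the 54 loci. The summed HAD IIIB FPKM, of 368 and 280.0 in PDL against 268 and 413 in PSL, ranked the libraries in the same order. So did the summed FPKM of the PAPs, with a smaller spread, and that of the whole table, where PSL-2 was 1.21 times PSL-1, against 2.17 times for Gm08g200200. The order followed neither the treatment nor the replicate number. With 4 libraries no correlation is given, and the part of the total in this order was not tested.

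**Figure D4:**
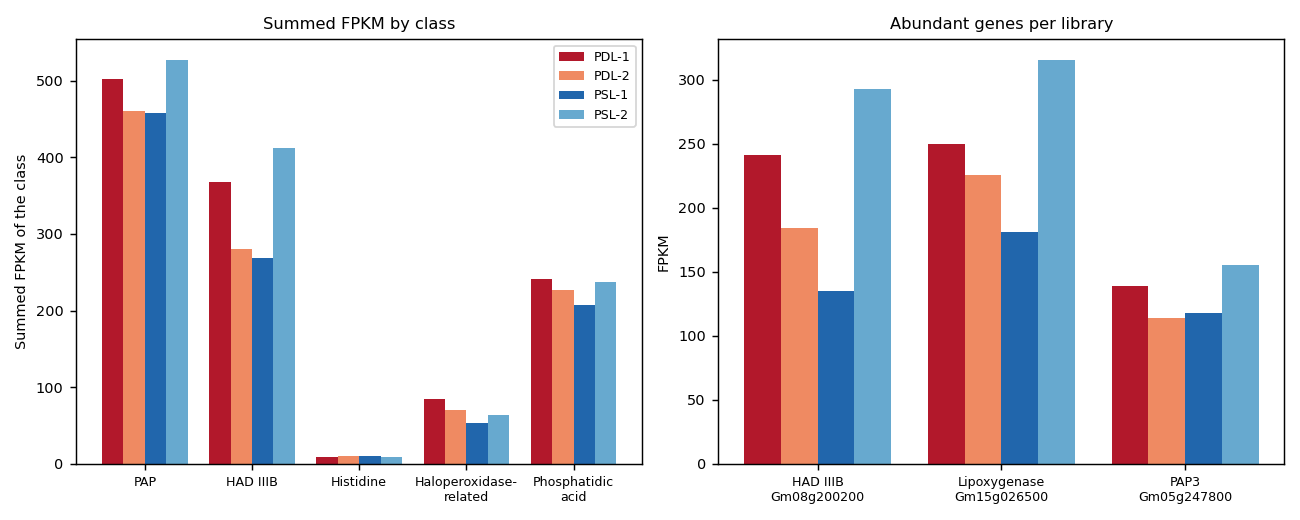
Summed FPKM of each class by library (left) and FPKM of the most abundant HAD IIIB, lipoxygenase and number 3 PAP genes (right), as bars from 0. PSL-2 is highest and PSL-1 lowest for the HAD IIIB sum, Gm08g200200 and Gm15g026500. The haloperoxidase-related sum alone has both PDL bars above both PSL bars, which its sum without Gm19g256000 would not have.

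Neither of the 2 histidine acid phosphatase genes passed in limma. Both carry the KEGG terms glycolysis and inositol phosphate metabolism. Gm05g080100 had 4.62 and 5.0 FPKM in PDL against 6.0 and 4.30 FPKM in PSL, and Gm18g024700 had 3.70 and 5.27 FPKM in PDL against 4.49 and 4.38 FPKM in PSL. The groups overlapped for both, with log2 fold changes of −0.08 and −0.01 (standard errors 0.21 and 0.22), and the 95% intervals lay between −0.66 and 0.59.

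In the haloperoxidase-related class, 5 of 6 genes were tested and none passed in limma. The function of these genes in plants is not settled. Gm19g256000 had 42.4 and 27.1 FPKM in PDL against 17.9 and 19.3 FPKM in PSL. Both PDL libraries were above both PSL libraries. The log2 fold change was 0.86, with a standard error of 0.25 and an adjusted p of 0.526 in limma, with an unadjusted p of 0.0222, just under the fold threshold. Without PDL-2 it passed, with a limma log2 fold change of 1.19 and an unadjusted p of 0.00526. Gm11g248300 had 17.4 and 17.4 FPKM in PDL against 11.7 and 12.3 FPKM in PSL, with replicates almost equal. Its log2 fold change was 0.53, with a standard error of 0.11 and an adjusted p of 0.474 in limma, with an unadjusted p of 0.00765. Gm08g102400 was under the filter, Gm08g160700 had 4 values from 6.38 to 6.57 FPKM, Gm13g310500 was highest in PSL-2, and Gm18g008900 had overlapping groups. The summed FPKM of the class was 84.6 and 70.3 in PDL against 53.7 and 64.0 in PSL (exact two-sided permutation test, p = 0.333, the smallest possible). It was the only class sum whose groups did not overlap. Gm19g256000 held 50.1% and 38.5% of this sum in PDL and 33.3% and 30.1% in PSL. The sum of the other genes of the class overlapped between the groups.

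Of the 12 phosphatidic acid phosphatase genes, 11 were tested and none passed in limma, and 0 had an unadjusted p of at most 0.05, against 8.93% of all loci tested. Gm11g071400, the third most abundant of the 80 genes, had 121 and 115 FPKM in PDL against 92.9 and 119 FPKM in PSL. The groups overlapped, with a log2 fold change of 0.17 (with standard error 0.16). It is 1 of 4 genes of the class that carry the KEGG term N-glycan biosynthesis, and their log2 fold changes lay between −0.02 and 0.17. Gm20g121200 is described as phosphatidic acid phosphatase 1. It had 9.91 and 10.3 FPKM in PDL against 8.72 and 8.23 FPKM in PSL. Both PDL libraries were higher by a small amount. The change on the log2 scale was 0.25, with a standard error of 0.12 and an adjusted p of 0.620 in limma, and the 95% interval ran from −0.07 to 0.58. Its partner Gm10g270100 was under the filter, with a mean of 0.266 FPKM. Gm17g139100 had 1.06 and 1.36 FPKM in PDL against 0.525 and 0.992 FPKM in PSL, and Gm08g213100 had 5.13 and 6.55 FPKM in PDL against 4.65 and 3.07 FPKM in PSL. Both were higher in PDL in both libraries, with log2 fold changes of 0.65 and 0.60 (standard errors 0.43 and 0.27). Gm19g204500 had 20.2 and 19.6 FPKM in PDL against 23.3 and 24.8 FPKM in PSL, so it was lower in both PDL libraries, with a log2 fold change of −0.27 (with standard error 0.11). For Gm03g207000, Gm07g029800, Gm05g056700, Gm01g171800, Gm10g050300 and Gm13g137800 the log2 fold changes lay between −0.24 and 0.12.

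In the order of levels, 4 genes stood above the rest and held 50% of the summed mean FPKM of the 80 genes. Over the 4 libraries the means were 213 ± 68.4 FPKM for Gm08g200200, 131 ± 19.1 for Gm05g247800, 112 ± 13.0 for Gm11g071400 and 106 ± 5.18 for Gm17g109400 (SD, n = 4). The first 3 each overlapped in range with the next, but Gm08g200200 was above Gm05g247800 in all 4 libraries. Gm05g247800 was above Gm11g071400, and Gm11g071400 above Gm17g109400, in 3 of the 4 libraries. The fourth was above the fifth, Gm07g047500, with 40.3 ± 7.03 FPKM, in all 4 libraries and without overlap. None of these 5 passed in limma. The 2 genes that rose were of middle and low level, with means of 4.97 and 1.74 FPKM over the 4 libraries. Of the 80 genes, 25 had a mean of at least 10 FPKM and 25 a mean under 1 FPKM. Across the 80 genes, Pearson's r of log2(FPKM + 0.1) was 0.974 between the PDL libraries, 0.957 between the PSL libraries and 0.952 to 0.966 between libraries of different groups. Across all loci, r was 0.9375 between the PDL libraries and 0.9374 between the PSL libraries. Between libraries of different groups it was 0.9325 to 0.9398, so replicates were no more alike than libraries of different groups. These values are taken across genes of the same libraries and carry no p.

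Other genes of Pi signaling and recycling were read from lists of description words. Of 79 loci for Pi sensing, transport and response regulators, 61 were tested, 6 rose, none fell and 55 did not pass in limma, beside 1.14% of all loci higher and 0.887% lower. The log2 fold change was above 0 for 33 of the 61 and below 0 for 28, with a median of 0.05. Gm04g147600, for an SPX domain protein of the family that senses Pi status, had 3.10 and 2.21 FPKM in PDL against 0.340 and 0.435 FPKM in PSL, a log2 fold change of 2.48 with a standard error of 0.34. Gm02g130200, for an EXS family protein related to the Pi exporter PHO1, had 1.48 and 0.854 FPKM in PDL against 0.296 and 0.269 FPKM in PSL. Of 58 loci for Pi scavenging and phospholipid replacement, 48 were tested, 5 rose, none fell and 43 did not pass, beside the same shares of all loci. Here 31 of the 48 had a log2 fold change above 0 and 17 below, with a median of 0.22. Gm03g078300, for a sulfolipid synthase, had 2.00 and 1.12 FPKM in PDL against 0.125 and 0.0531 FPKM in PSL. Gm08g195100, described as a pyridoxal phosphate phosphatase-related protein, had 12.1 and 7.58 FPKM in PDL against 1.67 and 2.40 FPKM in PSL. These named loci and both risen PAPs had PDL libraries that lay above the PSL libraries. All of them were named because they passed the thresholds as higher, so this follows from the choice. The lists were drawn up with earlier results of these libraries known and are no independent evidence of direction.

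Markers of other leaf cell types were examined beside these results. A list of 4 stomatal loci held 2 stomagen genes, which were higher in limma, and its summed FPKM was 32.4 and 35.8 in PDL against 24.6 and 21.5 in PSL. Stomagen is a peptide made by mesophyll cells that promotes stomatal development, so it does not mark guard cells, and Gm18g152800 was listed at 0 in both PSL libraries. Gm03g006600, for the guard cell factor MYB60, did not pass (log2 fold change 0.25, limma adjusted p = 0.617). Among 47 xylem loci, 26 were tested and 1 was higher, with summed FPKM of 86.5 and 43.3 in PDL against 45.1 and 68.4 in PSL. Among 114 loci of dividing cells, 79 were tested and 1 was lower. Beside these lists, 1.14% of all loci tested were higher and 0.887% lower. In the lists for epidermis (27 tested), root (11 tested) and senescence (10 tested) none passed in limma. Of the 10 senescence loci, 4 had an unadjusted p no higher than 0.05 in limma, against 8.93% of all loci tested. The senescence loci had a median log2 fold change of −0.36, with 6 of the 10 tested below 0. Both PDL libraries lay below both PSL libraries for 4 of the 10 (against 21.1% of all loci tested) and above them for 2 (against 20.2%). Their summed FPKM was 1079.9 and 952 in PDL against 739 and 769.9 in PSL, and Gm10g017600 alone held 55.3% to 62.0% of it in each library. Gm10g017600 had a log2 fold change of 0.51, with a standard error of 0.13 and an adjusted p of 0.511 in limma. The part of any of these differences in the rise of Gm08g056400 and Gm19g026600 was not tested.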

How the data were processed

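Leaf RNA of 2 PDL and 2 PSL libraries was measured by RNA-seq. The authors filtered reads with FastQC and FASTX-toolkit, mapped them with TopHat and Bowtie2 to Gmax2.0, and deposited FPKM values per library from Cufflinks and Cuffdiff; versions and strand setting are not given in the sources used here. The deposited table also holds the authors' own comparison (a log2 fold change and test score, p-values and q-values) and pooled FPKM, which were not used. It holds no counts per locus, so no counting interval is given.

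FPKM were tested as log2(FPKM + 0.1) with limma 3.58.1 (lmFit, eBayes with a mean-variance trend) in R 4.3.3, in place of Cuffdiff, which needs alignments. Loci needed a mean FPKM of at least 0.3. P-values were adjusted by Benjamini-Hochberg over all 32686 loci tested. The script was tested on simulated data. Tables were made with Python 3.11.15 and pandas 2.3.3. Rows that join several gene models (3 with acid phosphatase in the description) were left out of the 80 genes. Genes named were those past the thresholds, the most abundant gene of each class and number, the 5 highest and 5 lowest log2 fold changes of each class, genes at 0 in one group only, tandem neighbours, genes the study names, ACTIN11, and the leading loci of each list; other genes were named after their values were seen. The members and lists were chosen with earlier results of these data known. Nothing in the labels says that same-numbered libraries were paired. Each limma p compares the difference between groups with a variance between replicates that is moderated over all loci tested. Each library pooled 3 plants, so the variation between single plants was not measured. The alternatives changed the pseudocount, filter, scaling, trend, pairing and libraries.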

Additional observations from a re-analysis of the deposited data

How the results depend on the processing

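The acid phosphatase genes that rose numbered 2, but 1 with a pseudocount of 1 and 3 with no filter, where Gm19g194000 was added. Which genes rose also changed with each library left out, as given above for Gm08g056400, Gm19g026600, Gm05g247900 and Gm19g256000. Over the 13 alternative settings, the log2 fold change of Gm08g056400 ranged from 1.81 to 3.16. That of Gm19g026600 ranged from 0.79 to 1.41. None fell, but 1 did (Gm08g200100) with a pseudocount of 0.01, with no filter, under quantile normalization and without the trend, and 0 to 1 when each library was left out. Over all loci, 222 rose and 143 fell with a pseudocount of 1, 586 rose and 455 fell with no filter, and leaving out each library gave 501 to 792 higher and 470 to 683 lower. The median log2 fold change of the haloperoxidase-related genes ranged from 0.0349 to 0.386 when each library was left out. Of 587 comparisons of 46 named genes over 13 settings, 576 kept their call, 3 lost it, 8 gained one and 0 reversed. With the replicate number as a block (replicate block), 2 of the genes rose and 0 fell, and 0 loci had an adjusted p under 0.05, against 19 without it. Deviations of same-numbered libraries had a correlation of −0.08, so the numbers were not taken as pairs. With 2 libraries a group, the wide intervals of low genes limit what could be seen, and no adjusted p of the 65 genes tested was under 0.05.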

Other observations

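Another 3 rows of the table joined gene models and named an acid phosphatase, and none passed in limma. The joined locus Gm08g093400,Gm08g093500, described as geranylgeranyl reductase and purple acid phosphatase 3, had 96.3 and 87.4 FPKM in PDL and 71.5 and 78.9 FPKM in PSL, with a log2 fold change of 0.29. The reads of its 2 gene models cannot be told apart. The joined HAD IIIB locus Gm16g220700,Gm16g220800, 6151 bases from Gm16g220900, had 3.67 and 3.91 FPKM in PDL and 4.61 and 4.34 FPKM in PSL, with a log2 fold change of −0.23. Both PDL libraries were thus the lower ones, as for Gm16g220900. The joined haloperoxidase-related locus Gm12g191200,Gm12g191300 had 12.1 and 13.4 FPKM in PDL and 12.6 and 16.2 FPKM in PSL, and the groups overlapped.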
